A study of Arvicanthis niloticus with 7 samples.

Results

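The COP9 signalosome is a complex found from yeast to mammals, and its subunits in these data were *Gps1*, *Cops2*, *Cops3*, *Cops4*, *Cops5*, *Cops6*, *Cops7a*, *Cops7b* and *Cops8*. All probes that the platform annotation assigns to these 9 gene symbols were taken, which gave 17 of the 25697 probes on the array and 9 of its 16110 gene symbols. The complex was proposed for description with the values of *Cops4* in the palm fruit juice (PFJ) comparison already known, so the differences between the diet groups are given for the subunits as descriptions, with no test. A further small subunit of the mammalian complex, *Cops9*, was not represented on the array. The annotation follows mouse symbols, and each of the 9 symbols is also carried once, as a protein-coding gene, by the Nile rat (NR) assembly used here, where they lie on 7 chromosomes.

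The COP9 signalosome removes the ubiquitin-like protein NEDD8 from cullins, the scaffold proteins of the cullin-RING ubiquitin ligases. Attachment of NEDD8 switches these ligases on, and cycles of attachment and removal let the cullins exchange the receptor proteins that choose which proteins are marked for the proteasome. *Cops5* encodes the metalloprotease that cuts NEDD8 off and *Cops6* its inactive partner, while the products of *Gps1*, *Cops2*, *Cops3*, *Cops4*, *Cops7a*, *Cops7b* and *Cops8* form a scaffold built on a domain that the lid of the proteasome and the translation initiation factor eIF3 share.

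The RNA, labelled as liver, came from young male NRs, rodents that develop type 2 diabetes on diets rich in carbohydrate. The PFJ group had 3 arrays, from NRs whose diet was supplemented with PFJ to 5.4 g of gallic acid equivalents per kg, and the control group had 4 arrays, from NRs on the same diet without PFJ. Both groups ate the high-carbohydrate diet, with 70% of energy from carbohydrate, 10% from fat and 20% from protein, for 4 weeks starting when they were 3 weeks old. The RNA samples of best integrity within each condition had been selected for hybridisation, outlying samples had been removed by clustering, and no source names the animal behind an array, so that a p-value here reflects no more than the spread between the samples hybridised.

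The arrays were Illumina MouseRef-8 Version 2 BeadChips, and a probe designed on a mouse transcript can give a weak signal where the NR transcript differs from it. Between 4689 and 5137 probes per array were detected, meaning a detection p under 0.01 against the negative controls, and the background level lay between 133 and 151 signal units. Control 3 and control 4 stood apart from the other 5 arrays. Over 3734 genes they correlated at 0.986 with each other and at 0.759 to 0.778 with the rest, which correlated at 0.955 to 0.979 among themselves. Of 17 hepatocyte markers on the array, 5 were detected on control 3 and on control 4, against 10 to 13 on the others, and the summed signal of the 12 tested ones was 18056 to 23207 units against 209308 to 259582. *Apoa2*, *Cps1*, *Cyp1a2*, *F2* and *Serpinc1* were detected on all 5 other arrays and on neither of these, and *Alb*, the gene of albumin, was detected on none of the 7. *Ahsg*, *Trf*, *Cyp2e1*, *Hpd* and *Ass1* were detected on all 7, control 3 and control 4 included. Of 17 kidney markers, 8 were detected on control 3 and on control 4, against 3 on each of the others, with *Umod*, *Slc12a1*, *Slc34a1*, *Slc22a12* and *Cdh16* on control 3 and control 4 alone. The 3 tested ones, *Slc12a3*, *Miox* and *Fxyd2*, were detected on all 7 arrays, with a summed signal of 68464 to 81123 units against 3251 to 5217. The remaining kidney markers, among them *Aqp2*, *Lrp2* and *Slc22a6*, were detected on no array. The label of liver was therefore not borne out by the hepatocyte markers on control 3 and control 4, and differences are given with and without them for the brightest probe of each subunit and for the other genes described that were kept without them. In RNA from whole tissue, fewer cells of a type and less RNA per cell cannot be told apart.

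Values are background-corrected, quantile-normalised log2 signals unless signal units are named. A probe was kept if at least 3 arrays detected it, which 10 of the 17 probes were, and each gene was represented by its brightest kept probe. This left 6 subunits to describe, namely *Cops2*, *Cops4*, *Cops5*, *Cops6*, *Cops7a* and *Cops7b*, among 3734 genes. Scaffold subunits made up the rest. None of the 4 probes of *Gps1* was detected on any array, with signals of 107 to 178 units and a lowest detection p of 0.0551. The single probes of *Cops3* (154 to 194 units, lowest detection p 0.0138) and of *Cops8* (130 to 162 units, lowest detection p 0.143) were not detected either, nor was a second probe of *Cops7b* (129 to 148 units, lowest detection p 0.211). These 7 probes lay near background on all arrays, so no level and no fold is given for *Gps1*, *Cops3* or *Cops8*. Absence of signal from a mouse probe does not show absence of the NR transcript.

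The catalytic pair was detected on all 7 arrays. *Cops5*, the protease subunit, had values of 12.39, 12.61 and 12.21 on the PFJ arrays 1 to 3, against 12.54, 12.41, 12.10 and 11.98 on the control arrays 1 to 4. The groups overlapped, and the lowest values were those of control 3 and control 4. The means were 12.40 ± 0.20 with PFJ (SD, n = 3) and 12.26 ± 0.26 in controls (SD, n = 4), a difference of 0.15 (standard error, SE, 0.22). A second *Cops5* probe followed the same course, with 12.33, 12.39 and 12.00 on the PFJ arrays and 12.33, 12.42, 11.71 and 11.64 on the control arrays. *Cops6*, the inactive partner of the protease, had values of 11.67, 11.66 and 12.00 on the PFJ arrays and 11.85, 11.51, 12.21 and 12.02 on the control arrays. Its groups also overlapped, but here control 3 and control 4 held the highest values, and the means of 11.77 ± 0.20 with PFJ and 11.90 ± 0.30 in controls differed by -0.12 (SE 0.23). Without control 3 and control 4 both differences changed sign, to -0.08 for *Cops5* and 0.11 for *Cops6*. In every case the difference was smaller than its SE.

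Of the scaffold subunits, *Cops2* varied least. In the human complex its product grips the cullin. The PFJ arrays gave 12.02, 12.13 and 12.10 and the control arrays 11.97, 11.93, 12.11 and 12.01, a range of 0.21 over all 7. The means were 12.09 ± 0.06 with PFJ and 12.01 ± 0.08 in controls, with a difference of 0.08 (SE 0.16), which was 0.14 without control 3 and control 4. The overlap of the groups came from control 3, which exceeded 2 of the 3 PFJ arrays.

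*Cops7a* and *Cops7b* encode alternative versions of the same scaffold subunit. The brightest *Cops7a* probe had values of 11.89, 12.23 and 12.27 on the PFJ arrays and 12.08, 12.16, 12.22 and 12.45 on the control arrays, with means of 12.13 ± 0.21 and 12.23 ± 0.16 and a difference of -0.10 (SE 0.20). *Cops7b* had values of 8.19, 7.93 and 8.25 on the PFJ arrays and 7.89, 7.72, 8.30 and 8.34 on the control arrays, with means of 8.13 ± 0.17 and 8.07 ± 0.31 and a difference of 0.06 (SE 0.23). The PFJ and control arrays overlapped for both genes. Without control 3 and control 4 the difference was 0.01 for *Cops7a* and 0.32 (SE 0.20) for *Cops7b*. A second *Cops7a* probe was detected on all 7 arrays, with 7.03, 7.60 and 7.78 on the PFJ arrays and 6.96, 7.41, 6.92 and 7.03 on the control arrays. The remaining kept *Cops7a* probe was detected on 2 of the 3 PFJ arrays and 3 of the 4 control arrays, with values between 5.66 and 7.07.

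**Figure D1:**
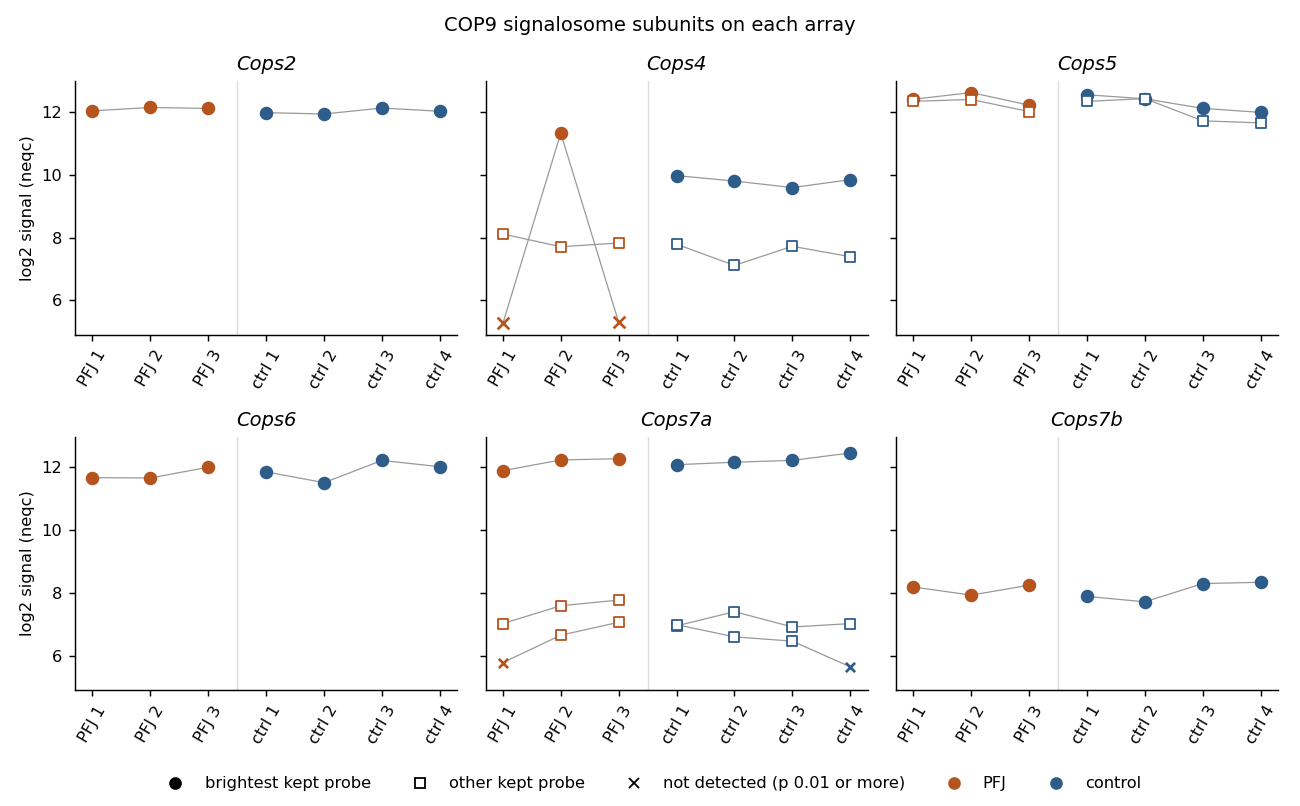
Log2 signal (vertical axis) of every kept probe of the 6 subunits on the 3 PFJ arrays, left in each panel, and the 4 control arrays, right; circles are the brightest kept probe of the gene, squares its other kept probes and crosses arrays without detection. The brighter *Cops4* probe is at 5.27 and 5.30 on PFJ 1 and PFJ 3 and at 11.32 on PFJ 2, while the brightest probes of the other subunits keep within 0.71 log2 units.

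*Cops4* had the widest range of the 6 subunits. Its product is a scaffold subunit that, in the human complex, lies beside the catalytic pair. The brighter of its 2 kept probes, probe 5960196, gave a signal of 155 units on PFJ 1, 2751 units on PFJ 2 and 162 units on PFJ 3, against 1144, 926, 1144 and 1124 units on the control arrays. PFJ 1 and PFJ 3 were therefore near the background of their arrays, with detection p-values of 0.145 and 0.133, whereas PFJ 2 had the highest signal of all 7 arrays and the controls lay close together between. As log2 values these were 5.27, 11.32 and 5.30 on the PFJ arrays and 9.97, 9.80, 9.59 and 9.84 on the control arrays, a range of 6.05. Values without detection have no order and lie near background, so the log2 range is better read as a bound. With each raised to the lowest detected value of its array, 6.39 on PFJ 1 and 6.52 on PFJ 3, the range was at least 4.93. The means were 7.30 ± 3.48 with PFJ, a group in which 1 of 3 arrays detected the probe, and 9.80 ± 0.16 in controls, where all 4 did. The difference of -2.50 (SE 1.43) was smaller than the SD of the PFJ group, and the control arrays lay between the PFJ arrays. That SE comes from limma, which takes the same variance for both groups. It therefore does not describe the much wider spread of the PFJ arrays. The values normalised by the authors also put PFJ 2 highest and PFJ 1 and PFJ 3 lowest, with 18.3, 2436 and 20.6 units on the PFJ arrays and 976, 874, 761 and 865 units on the control arrays.

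The second *Cops4* probe, probe 7050221, was designed on the same mouse transcript and did not follow the first. It was detected on all 7 arrays, with 382, 327 and 297 signal units on the PFJ arrays and 340, 246, 423 and 314 units on the control arrays. On the log2 scale the PFJ arrays gave 8.11, 7.71 and 7.83 and the control arrays 7.79, 7.11, 7.72 and 7.39. PFJ 1, where the brighter probe was not detected, had the highest log2 value of the second, while control 3 had its highest signal. The means were 7.88 ± 0.21 with PFJ and 7.50 ± 0.31 in controls, a difference of 0.38 (SE 0.24) in the direction opposite to that of the brighter probe, and the groups overlapped. The difference between the diet groups in *Cops4* thus depended on the probe chosen, and which probe follows the NR transcript was not tested.

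**Figure D2:**
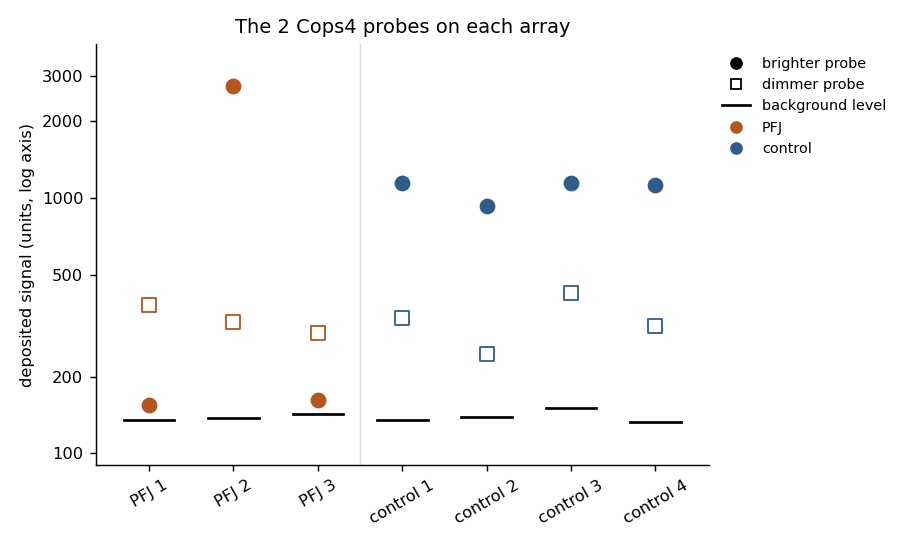
Deposited signal of both *Cops4* probes (log axis, signal units) on the 3 PFJ arrays, left, and the 4 control arrays, right, with the background level of each array as a bar. The brighter probe drops to 155 and 162 units on PFJ 1 and PFJ 3, near background, while the second probe stays between 246 and 423 units on all arrays.

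The disagreement was compared with that of other genes that have several probes. Among the 4596 kept probes, 1061 pairs belonged to the same gene, in 698 genes. For each pair the log2 difference between the probes was taken on each array, and its range over the 7 arrays was recorded, so that a constant offset between probes plays no part. Undetected values were first raised to the lowest detected value of their array, which makes the range of the *Cops4* pair a bound. The median range was 0.93, and the *Cops4* pair had a range of at least 5.33, exceeded by 4 pairs, 3 of *Il1rap* and 1 of *Cyp27a1*, named after their values were seen. Without this step the range of the *Cops4* pair was 6.45, with none larger, so that its place among the pairs depended on values at background. The *Cyp27a1* range was 5.25 without the step and 6.30 with it. Without it, the probes of those 4 pairs correlated at 0.955 to 0.965 over the 7 arrays, and the *Cops4* probes at -0.573. A wide range thus shows a changing gap between probes, not that they moved in opposite directions. The *Cops5* pair had a range of 0.40 and ranked 971st of 1061, and the 3 *Cops7a* pairs had ranges of 0.93, 0.98 and 0.99. These ranges are a description, since *Cops4* was chosen with its values known.

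**Figure D3:**
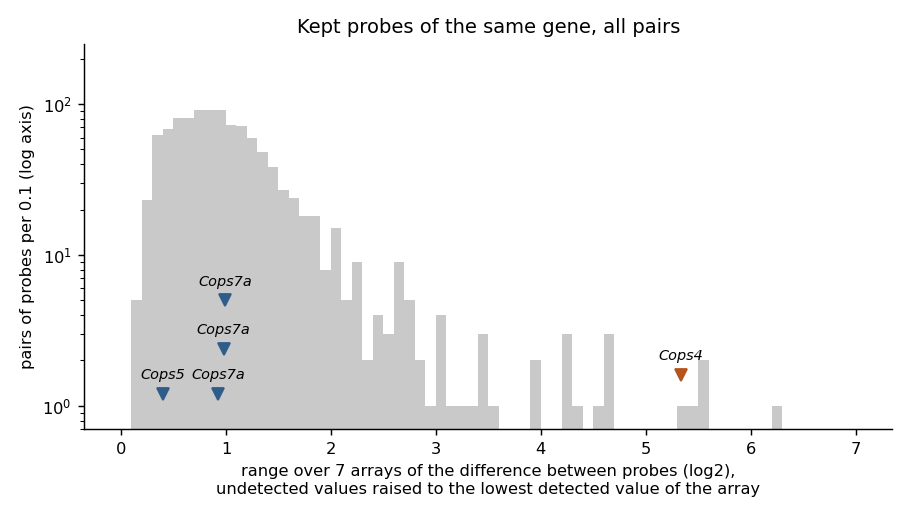
Number of same-gene probe pairs (log axis) by the range over 7 arrays of the log2 difference between the probes, with undetected values raised to the lowest detected value of the array, for 1061 pairs; triangles mark the subunits, *Cops4* in orange. The *Cops4* pair lies at 5.33, where 4 pairs lie further right, and the *Cops5* and *Cops7a* pairs lie between 0.40 and 0.99.

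*Cops4* was set against the rest of the complex on each array by subtracting the median of the other 5 subunits. Since levels of different probes cannot be compared, only the change of this value between arrays is informative. It was -6.62, -0.82 and -6.80 on the PFJ arrays and -2.001, -2.13, -2.53 and -2.17 on the control arrays. The means were -4.74 ± 3.40 with PFJ and -2.21 ± 0.23 in controls, a difference of -2.54, and again the controls lay between the PFJ arrays. The median of the other 5 subunits was 12.04 ± 0.13 with PFJ and 12.01 ± 0.08 in controls. It was the value of *Cops2*, the least variable subunit, on every array except PFJ 1, where it was that of *Cops7a*. Its narrow spread is therefore mainly that of *Cops2* and does not describe the other subunits together. On PFJ 1 and PFJ 3, where the brighter *Cops4* probe was near background, this median was 11.89 and 12.10. With the second *Cops4* probe in its place the difference was 0.34.

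The spread within the groups was described for all 3734 genes. *Cops4* was chosen with its values on these arrays known, so its place among them is a description only. The SD of *Cops4* over the PFJ arrays, 3.48 log2 units, was exceeded by 2 genes, and the median SD was 0.289. With undetected values raised to the lowest detected value of the array it was 2.81, still with 2 genes above it and with a median of 0.260. Over the control arrays the SD of *Cops4* was 0.16, at percentile 9.53 of all genes, where the median was 0.439. The control SDs of all genes include control 3 and control 4, which stood apart from the other arrays. The part of those arrays in the control percentiles was not tested. Both genes with a wider spread over the PFJ arrays were named after their values were seen. *Gstt3*, a glutathione transferase, had 12.995, 5.19 and 12.68 on the PFJ arrays and 12.31, 5.25, 10.53 and 10.04 on the control arrays. *Acaa1a*, a peroxisomal thiolase, had 5.57, 12.80 and 6.90 on the PFJ arrays and 6.38, 5.71, 5.87 and 5.78 on the control arrays. PFJ 2 was the odd array among the PFJ arrays in all 3 genes, low in *Gstt3* and high in *Acaa1a* and *Cops4*. Set against the controls this held for *Acaa1a* only. In *Cops4* PFJ 1 and PFJ 3 lay further from the controls than PFJ 2 did, and in *Gstt3* control 2 was also low. Over all genes the correlation of PFJ 2 with PFJ 1 and PFJ 3 was within the range given above. The cause of these differences between arrays was not tested. The other 5 subunits lay at percentiles 4.07 to 33.2 of the SD over the PFJ arrays and 1.98 to 32.8 of that over the control arrays.

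**Figure D4:**
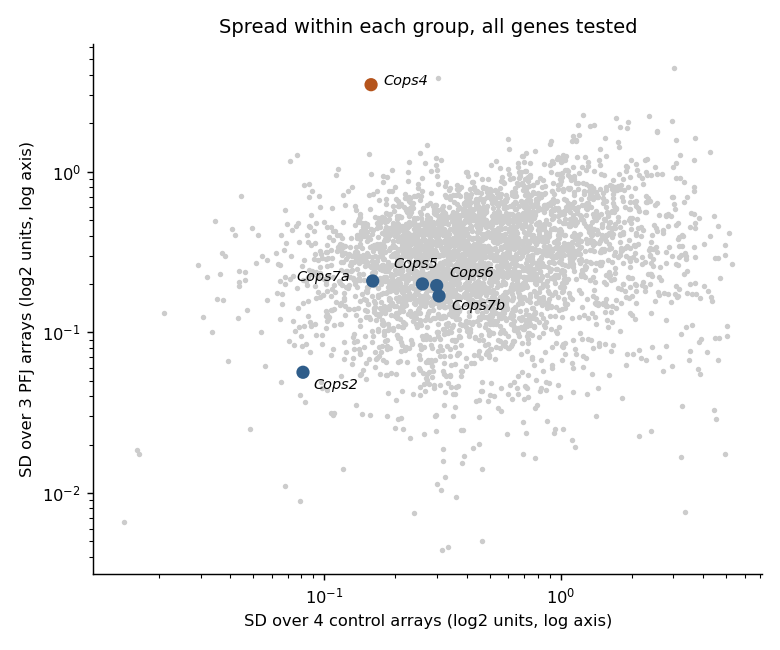
SD over the 3 PFJ arrays (vertical) against SD over the 4 control arrays (horizontal), log2 units on log axes, for 3734 genes (grey); *Cops4* is orange and the other 5 subunits are blue. *Cops4* has an SD of 3.48 over the PFJ arrays and 0.16 over the control arrays, and the other subunits lie among the less variable genes on both axes. The control SDs include control 3 and control 4, which stood apart from the other arrays.

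The pattern of detection of the brighter *Cops4* probe, present on PFJ 2 and the 4 controls and absent on PFJ 1 and PFJ 3, was shared by 16 of the 4596 kept probes, itself included. On the arrays that detected it, the lowest *Cops4* value lay at least 3.06 log2 units above the lowest detected value of PFJ 1 and PFJ 3. The pattern is the one for which *Cops4* was chosen, and nothing is read from this comparison.

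The fit across all genes gave the background for these values. With limma, 0 of 3734 genes (0%) passed an adjusted p of 0.05, with 0.0524 as the smallest adjusted value. Before adjustment, a p under 0.05 was reached by 81 genes higher with PFJ (2.17%) and by 97 genes lower with PFJ (2.6%). With the array medians set equal instead of the quantile step, this split was 30 higher and 159 lower, with 2 genes at an adjusted p under 0.05 and a median difference over all genes of -0.18 in place of 0.03. None of the 6 subunits was among any of these calls. The groups did not overlap in 129 genes that were higher with PFJ (3.45%) and in 135 that were lower (3.62%), and again no subunit was among them. Since the subunits were chosen with this comparison known, nothing is read from these counts. Of the 6 differences 3 were positive and 3 negative, with a median of -0.02, against 0.03 over all genes. Under equal medians, *Cops2* was at -0.05 and *Cops7b* at -0.23, and relative to the shift of -0.18 they were at 0.13 and -0.05.

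Leaving out single arrays changed the size of the difference of the brighter *Cops4* probe but not its sign, and PFJ 2 changed it most. Without PFJ 2, the difference of the brighter probe was -4.51, with both remaining PFJ arrays undetected. As a bound, the control mean lay at least 3.34 log2 units above the mean of PFJ 1 and PFJ 3, each raised to the lowest detected value of its array. Without PFJ 1 the difference was -1.50 and without PFJ 3 it was -1.54. Without control 3 and control 4 it was -2.51, as large as with them.

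The other genes of the NEDD8 cycle were taken from lists compiled by name, with earlier results of these arrays known. The lists of cullins, NEDD8 attachment, ligase regulators, adaptors and receptors, the proteasome lid and eIF3 held 80 genes, of which 70 were on the array and 39 were tested. At an unadjusted p under 0.05, 1 of the 39 was higher with PFJ and 0 were lower, beside 2.17% and 2.6% of all genes, and 0 passed the adjusted p of limma. The 39 differences were 19 positive and 20 negative, with a median of -0.01. Of the 38 that could also be fitted without control 3 and control 4, 18 changed sign, with 13 then positive, 25 negative and a median of -0.06.

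None of the 8 tested NEDD8 attachment genes was called at an unadjusted p under 0.05. Beside 2.17% of all genes called higher and 2.6% lower, so small a list allows no reading of this. *Nae1*, the regulatory subunit of the NEDD8-activating enzyme, had values of 11.35, 11.98 and 11.79 on the PFJ arrays and 11.67, 12.09, 13.67 and 13.11 on the control arrays. Its difference of -0.93 (SE 0.50) was -0.19 without control 3 and control 4, which held the highest values. *Dcun1d1*, which helps to load NEDD8 onto cullins, had values of 10.18, 10.51 and 10.13 on the PFJ arrays and 10.38, 10.27, 8.51 and 8.49 on the control arrays. Its difference of 0.86 (SE 0.56) was -0.06 without control 3 and control 4, which here held the lowest values. *Nedd8* itself had a difference of -0.35 (SE 0.33), and *Uba3*, the catalytic subunit of the activating enzyme, one of 0.19 (SE 0.22), which were 0.15 and 0.13 without control 3 and control 4. *Ube2f*, a NEDD8-conjugating enzyme, was at 0.24 (SE 0.35) and *Rbx1*, the RING protein that binds the cullin, at 0.28 (SE 0.42), against -0.22 and -0.17 without those arrays. *Dcun1d4* and *Dcun1d5*, relatives of *Dcun1d1*, were at -0.03 (SE 0.46) and 0.33 (SE 0.25), against 0.12 and -0.01 without those arrays. Of the 8 differences 6 changed sign when the 2 arrays were left out. Hepatocyte markers were low and kidney markers high on control 3 and control 4, as given above, and their part in these differences was not tested.

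With all arrays, none of the tested cullins, adaptors or regulators was called at an unadjusted p under 0.05. They too are few beside 2.17% of all genes called higher and 2.6% lower, and nothing is read from the count. Of the cullins, *Cul3* had a difference of -0.15 (SE 0.20), *Cul4a* of 0.30 (SE 0.26) and *Cul4b* of -0.11 (SE 0.20). Without control 3 and control 4 all 3 changed sign, to 0.03, -0.01 and 0.08. *Cul3* was at 12.88, 13.03 and 13.03 on the PFJ arrays and at 12.94, 12.95, 13.44 and 13.19 on the control arrays, so that the groups overlapped. *Ddb1*, the adaptor of the *Cul4* ligases, had a difference of -0.36 (SE 0.24), and *Elob*, an adaptor of other cullin ligases, one of -0.01 (SE 0.37), which were -0.07 and -0.06 without control 3 and control 4. *Usp15*, a deubiquitinase that associates with the COP9 signalosome, had 7.52, 7.61 and 7.66 on the PFJ arrays and 8.18, 7.998, 7.41 and 7.12 on the control arrays, with a difference of -0.08 (SE 0.29). Its PFJ values lay below control 1 and control 2 and above control 3 and control 4, and without control 3 and control 4 the difference was -0.50 (SE 0.19), with an unadjusted p of 0.0361 and an adjusted p of 0.999 by limma.

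Among the 13 tested substrate receptors, the call was *Ddb2*, which recognises damaged DNA with *Ddb1*. It had values of 8.82, 8.92 and 9.44 on the PFJ arrays and 8.74, 8.28, 8.25 and 8.46 on the control arrays. All 3 PFJ arrays lay above the 4 controls, and the difference of 0.63 (SE 0.24) had an unadjusted p of 0.0319 and an adjusted p of 0.561 by limma. Without control 3 and control 4 the difference was 0.56 (SE 0.28), of similar size, with an unadjusted p of 0.0904 by limma. The call was thus lost with fewer arrays and a larger SE. Of its other kept probes, 1 gave a difference of 0.59 and 1 a difference of -0.37, and with the mean of its 3 probes the difference was 0.28 with an unadjusted p of 0.164 by limma. *Fbxo7*, an F-box protein, had the next lowest p, with 9.36, 9.88 and 9.42 on the PFJ arrays and 9.34, 9.08, 7.92 and 8.04 on the control arrays. Its difference of 0.96 (SE 0.41, adjusted p 0.561 by limma) was 0.35 without control 3 and control 4, and the study had listed this gene from these arrays.

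Both complexes built on the same domain as the COP9 signalosome gave no call at an unadjusted p under 0.05. With 2.17% of all genes called higher and 2.6% lower, nothing is read from this in so few genes. In the proteasome lid 5 genes were tested, 4 of them with positive differences and a median of 0.42, which was -0.06 without control 3 and control 4. *Psmd11* and *Psmd12*, lid scaffold subunits, had the lowest p-values, with differences of 0.78 (SE 0.52) and 0.46 (SE 0.35), which were -0.06 and 0.03 without control 3 and control 4. In eIF3 7 genes were tested, 6 of them with negative differences and a median of -0.14, against -0.12 over the 6 that could be fitted without those arrays. *Eif3l* had a difference of -0.33 (SE 0.22), which was -0.11 without control 3 and control 4, and *Eif3c*, detected on 1 of 3 PFJ arrays and 2 of 4 control arrays, had one of -0.28 (SE 0.31) and was not kept without control 3 and control 4.

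**Figure D5:**
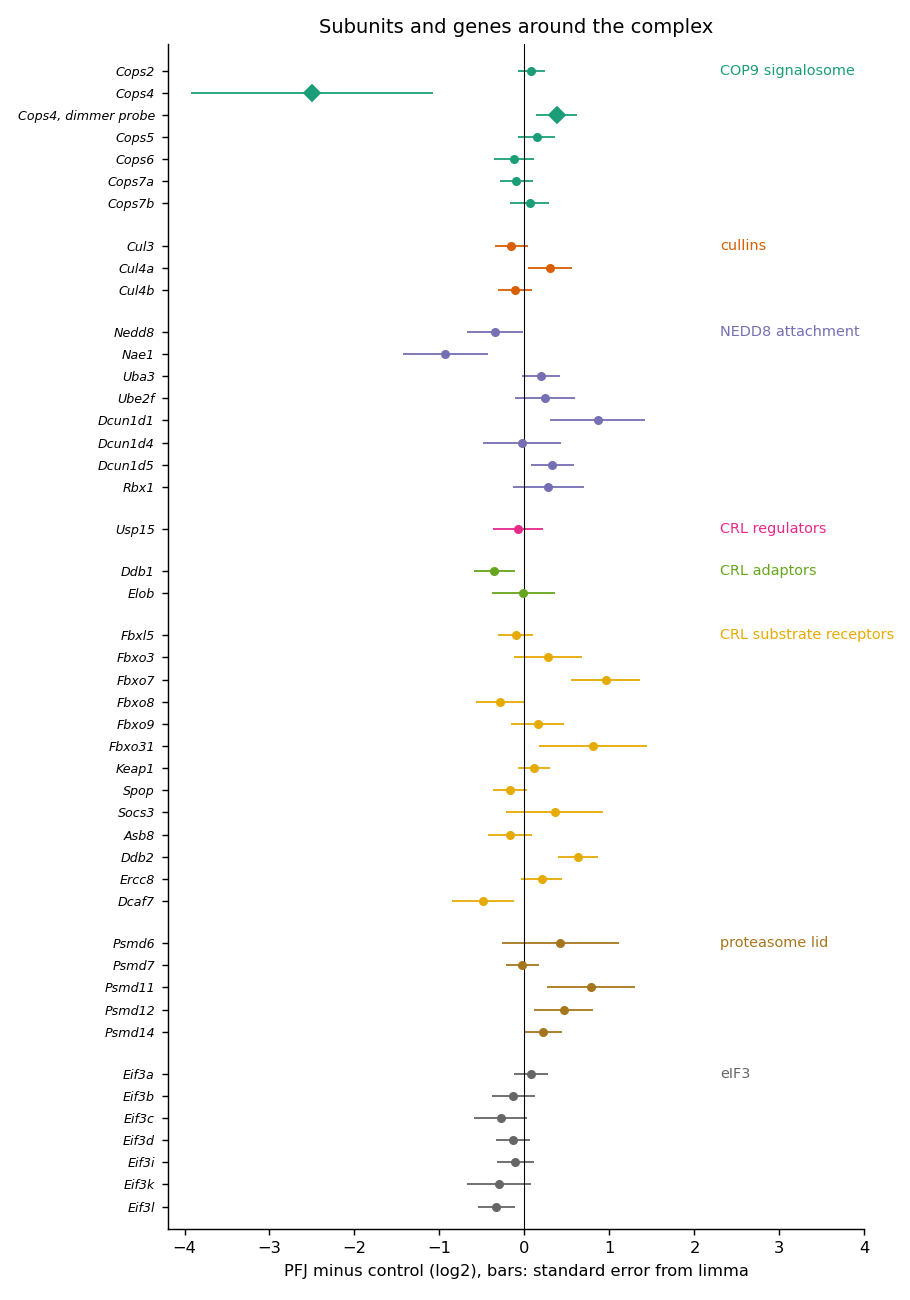
Difference of PFJ minus control (log2, horizontal axis) with its standard error from limma for the 6 subunits, the second *Cops4* probe and the 39 tested genes of the lists, grouped by list; diamonds mark *Cops4*. The brighter *Cops4* probe lies at -2.50 with an SE of 1.43 and its second probe at 0.38, while the genes of the lists lie between -0.93 and 0.96. Each SE takes the same variance for both groups, which the brighter *Cops4* probe did not have.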

How the data were processed

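The deposited table held the mean bead signal of each probe as an intensity and, per the file headers, a detection p-value, for 7 arrays (3 PFJ, 4 control). The authors had extracted these with BeadStudio, and the submitters' processing notes name GenomeStudio 2011.1. A second deposited table held intensity values that the authors had normalised by the rank invariant method. Its columns had medians of 6.16 to 8.97, values below 0, and the same probe order as the signal of their own array, so that the scale was taken as linear; it served as an alternative, floored at 10 before taking log2. Columns matching no sample numbered 0.

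Signals were processed with neqc of limma 3.58.1 in R 4.3.3 (offset 16). Probes with a detection p under 0.01 on at least 3 arrays were kept, and the brightest by mean stood for its gene. Of the 25697 probes, 23141 had 1 gene symbol and 2556 were not listed. lmFit and eBayes compared PFJ with control over 3734 genes, with Benjamini-Hochberg adjustment; the error model named in the methods was not run. The script was tested on simulated data. Alternatives covered normalisation, background, offset, filters, probe choice, array weights, a replicate block and omitted arrays.

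Members and lists were chosen with earlier results of these data known. The genes named were all members, all tested cullins, attachment enzymes, regulators and adaptors, the 2 lowest p-values among receptors, lid and eIF3, and the 5 genes most correlated with *Cops4* and with *Cops5*; others are said to have been named after their values were seen. Sequences of probes were not used here. The number of arrays limits the precision.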

Additional observations from a re-analysis of the deposited data

How the results depend on the processing

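The *Cops4* difference of -2.50 and its difference from the median of the other subunits, -2.54, kept their sign in 18 of 20 settings each. Both became positive, 0.38 and 0.34, when detection on all 7 arrays was required, because the brighter probe then left, and with the dimmer probe, an alternative chosen after seeing the data. Leaving out single arrays gave -4.51 to -1.50 and -4.50 to -1.54, and other planned settings ran to -3.15 and -3.23 with the authors' normalised values, to -1.31 and -1.34 with no background correction and to -1.06 and -1.07 with the mean of all kept probes. With undetected values raised to the lowest detected value of the array, also chosen after seeing the data, they were -1.72 and -1.76, and *Mup2* passed the adjusted threshold.

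The 81 higher genes became 30 with medians set equal, 445 with no filter on detection, 52 with detection on all 7 arrays, 136 at a detection p under 0.05, 44 with the authors' normalised values, 142 with array weights, 48 without control 3 and 4, and 28 to 305 leaving out single arrays. The 97 lower genes became 159 with medians set equal, 356 with no filter, 60 with detection on all 7 arrays, 51 without control 3 and 4, and 30 to 245 leaving out single arrays. The 0 genes at an adjusted p under 0.05 became 2 with medians set equal (*Mup2* and *Mup6*), and 0 to 1 leaving out single arrays: *Mup2* without PFJ 1 and *Cops4* without PFJ 2, where both remaining PFJ arrays are undetected and which is no test, since *Cops4* was chosen on these values. The cause was not tested. With no filter, *Gps1*, detected on no array, was among the lower genes at an unadjusted p (0.00586) but not an adjusted p (0.778).

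Of the list genes, the 1 higher became 0 with medians set equal, with the mean of all kept probes and without control 3 and 4, and 2 (*Ddb2* and *Fbxo7*) with no background correction, an offset of 50, no filter, detection on all 7 arrays, a detection p under 0.05 and array weights. It became 0 to 3 leaving out single arrays. The 0 lower became 1 with no filter (*Skp2*) and 1 without control 3 and 4 (*Usp15*), and 0 to 1 leaving out single arrays (*Nae1* without control 1).

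Same-numbered arrays deviated together with correlations of 0.0889, 0.216 and 0.126. PFJ 1 and PFJ 2 correlated best with their own number, PFJ 3 with control 4, and control 1, 2 and 3 each with their own number. Since 1 correlation is under 0.1 and no label ties the numbers, they are treated as sharing only a number. With the replicate number as a block, 33 genes were higher, 32 lower and 0 of the list genes higher, and *Cops4* was at -2.48 and -2.52.

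Of the other subunits, *Cops7a* moved to 0.12 with the mean of its probes, and *Cops2*, *Cops5*, *Cops6*, *Cops7a* and *Cops7b* kept their sign in 17, 17, 17, 15 and 14 of 18 settings. Signal near background on all arrays leaves 7 of the 17 probes, and with them *Gps1*, *Cops3* and *Cops8*, without a level. At a detection p under 0.05 the *Cops3* probe was also kept, which made 7 subunits tested in that setting.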

Other observations

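The 5 genes outside the complex whose values over the 7 arrays were most like those of the brighter *Cops4* probe were *Vps35l* (Pearson's r = 0.977), *Rorb* (0.975), *Efna5* (0.966), *Clock* (0.961) and *Fam199x* (0.956). These were picked as the highest of all tested genes, so the coefficients are a description only. In all 5 PFJ 2 had the highest value and PFJ 1 and PFJ 3 the lowest, over ranges of 0.23 to 1.83 log2 units, against at least 4.93 for *Cops4*. *Efna5*, an ephrin, had the widest, 1.83 log2 units, with 8.94, 10.77 and 9.16 on the PFJ arrays and 10.16, 10.68, 10.37 and 10.25 on the control arrays. *Clock*, a transcription factor of the circadian oscillator, had 10.53, 11.06 and 10.37 on the PFJ arrays and 10.83, 10.96, 10.81 and 10.89 on the control arrays. *Rorb* was detected on 3 arrays.

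The genes most like *Cops5* were *Stard7* (Pearson's r = 0.993), *Rap2c* (0.991), *Ptges3* (0.988), *Vcl* (0.982) and *R3hdm2* (0.980), picked in the same way. All 5 had their lowest values on control 3 and control 4, as *Cops5* had, so these coefficients carry the split between those arrays and the other 5. *Stard7* and *Ptges3* were each detected on 5 of the 7 arrays, so some of their values lay near background. *Rap2c*, a small GTPase, had 9.45, 10.04 and 9.06 on the PFJ arrays and 9.77, 9.42, 8.55 and 8.16 on the control arrays.

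Of the protein-coding genes next to *Cops4* in the NR assembly, those with a probe gave little or no signal to set beside it. *Plac8* and *Lin54*, on either side, and *Coq2* and *Hpse* further on, were detected on 0 arrays, and *Helq* on 1. *Mrps18c*, *Sec31a* and the neighbours named only by a locus number had no probe and were not measured.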
